A study of Mus musculus with 31 samples.

Results

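The genes described here are 10 enzymes and regulators of branched-chain amino acid catabolism, Bcat2, Bckdha, Bckdhb, Dbt, Bckdk, Ivd, Mccc1, Mccc2, Hibadh and Acat1. They were chosen by symbol, by a rule that names no measured value, though with earlier results of these data known, and all 10 were present among the 13677 genes of the liver count table and the 15987 genes of the table of epididymal white adipose tissue (eWAT, a visceral fat pad). RNA-seq was done on wild-type C57BL/6 male F1 mice aged 24 weeks, which had eaten chow until 6 weeks of age and then LFD, a diet the labels name only by that abbreviation, for 18 weeks. The arms carry the diet tags LFD, HFD and HFLFD and are called LF, HF and HFLF here. Since every animal itself ate LFD, the tag is read here as the father's diet, which the series title implies and which no label states. LF, HF and HFLF are represented by 4, 5 and 6 liver libraries and by 4, 6 and 6 eWAT libraries.

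Leucine, isoleucine and valine are broken down in mitochondria by a shared start and separate ends. A transaminase (Bcat2) first removes the amino group, and the branched-chain keto acid dehydrogenase complex (BCKDH) then decarboxylates the keto acid in an irreversible step, which a kinase (Bckdk) turns off and a phosphatase (Ppm1k) turns on. The 3 carbon chains then go separate ways, to acetyl-CoA and ketone bodies from leucine, to acetyl-CoA and propionyl-CoA from isoleucine, and to propionyl-CoA from valine. Hepatocytes are known for low transaminase and high BCKDH activity, and adipocytes for using these amino acids as carbon for fat synthesis.

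The labelled tissues carried their own markers. CPM are counts scaled to the library's total times a scaling factor. Summed CPM of 6 hepatocyte genes ran from 73460 to 106300 in the liver libraries and from 15.1 to 346 in eWAT. Summed CPM of 6 adipocyte genes ran from 26400 to 39690 in eWAT, and in liver Adipoq, Plin1 and Lep were not among the genes of the table. Library totals were 9225373 to 17268415 counts in liver and 9278083 to 27230205 in eWAT. Before the scaling factor, 3 counts in a library thus correspond to 0.110 to 0.325 CPM. The lowest member, Bckdk in liver, lay far above that at 13.1 CPM or more. This floor covers counting error only, and in bulk tissue fewer cells of a type and less RNA per cell cannot be told apart.

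The tissues differed in where along the pathway transcripts were abundant. The start of the pathway, Bcat2, the inhibitory kinase Bckdk and Mccc1, of the middle of leucine breakdown, were lower in liver than in eWAT, while Bckdha of the BCKDH complex and the thiolase Acat1 were higher in liver, all 5 under each scaling tried. Dbt and Hibadh passed as higher in liver under the main scaling but not with library totals. In 1 fit of all 31 libraries, 10 of 10 members passed edgeR's quasi-likelihood test with Benjamini-Hochberg adjustment at 0.05, 7 higher and 3 lower in liver. Of all 12735 genes in both tables, 85.5% passed, 42.6% higher and 42.9% lower, so the count itself does not set these genes apart. The scale of this comparison rests on trimmed means of M values (TMM), with factors of 0.734 to 0.797 in liver and 1.22 to 1.33 in eWAT. Scaling by library totals alone lowers every liver against eWAT difference by 0.74 on the log2 scale, and 8 members then passed, 2 higher and 6 lower in liver. Of all genes 91.2% passed with library totals, 19.5% higher and 71.8% lower. In LF libraries only, 7 members passed, as did 65.4% of all genes.

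Bcat2, the mitochondrial branched-chain aminotransferase, is at chromosome 7, 45570153 to 45589711 (GRCm38). Its level on the joint scale had a median of 65.1 CPM in liver (lowest 47.8, highest 86.2) and 184 CPM in eWAT (lowest 127, highest 367). The lowest eWAT library lay above the highest liver library. The log2 difference was -1.56 ± 0.11 (SE), and -2.30 with library totals. Exons of Bcat2 share 622 bases (15.9% of their length) with an antisense gene on the opposite strand, 0610005C13Rik. That gene had a median of 358 CPM in liver and 0.726 CPM in eWAT, and since it is unstated whether counting used strand, reads of the shared bases cannot be told apart.

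The 3 subunit genes of the BCKDH core were all higher in liver under TMM, to unequal degrees. Bckdha (chromosome 7, 25629946 to 25658981), the alpha subunit of the decarboxylase component, had a median of 143 CPM in liver and 64.3 CPM in eWAT, a log2 difference of 1.16 ± 0.06, with no overlap between libraries of the tissues on the TMM scale. Dbt (chromosome 3, 116513070 to 116549981), the transacylase that forms the core, had medians of 116 and 69.4 CPM and differed by 0.85 ± 0.10, with overlapping libraries. Its difference was 0.11 with library totals, which no longer passed (edgeR adjusted p = 0.246). Bckdhb (chromosome 9, 83925145 to 84124240), the beta subunit that pairs with Bckdha, differed by only 0.30 ± 0.07 and turned to -0.44 with library totals. Exons of Bckdha share 1171 bases (61.7%) with B3gnt8 on the opposite strand, a gene at medians of 8.29 CPM in liver and 6.79 CPM in eWAT. Dld, the component shared with other dehydrogenase complexes, differed by 0.02 ± 0.07 under TMM and did not pass. The 0.74 by which library totals lower every difference exceeds that value, so Dld was level between the tissues under TMM only.

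The regulators of the complex differed in opposite directions. Bckdk (chromosome 7, 127904082 to 127910221) had a median of 21.5 CPM in liver (lowest 17.9, highest 29.6) and 55.9 CPM in eWAT (lowest 46.2, highest 73.5), a log2 difference of -1.39 ± 0.07. Ppm1k, the phosphatase that activates BCKDH, had a median of 113 CPM in liver (lowest 84.4, highest 154) and 16.5 CPM in eWAT (lowest 7.60, highest 20.5), a difference of 2.82 ± 0.11. Because both are counted in the same library, their ratio needs no scaling between tissues. Bckdk counts per Ppm1k count ran from 0.137 to 0.351 in the 15 liver libraries, with a median of 0.202. In the 16 eWAT libraries the ratio ran from 2.80 to 8.65, with a median of 3.42. Divided by exon length the medians were 0.329 in liver and 5.57 in eWAT, so kinase transcripts were the fewer of the pair in every liver library and the more abundant in every eWAT library on both scales.

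**Figure D1:**
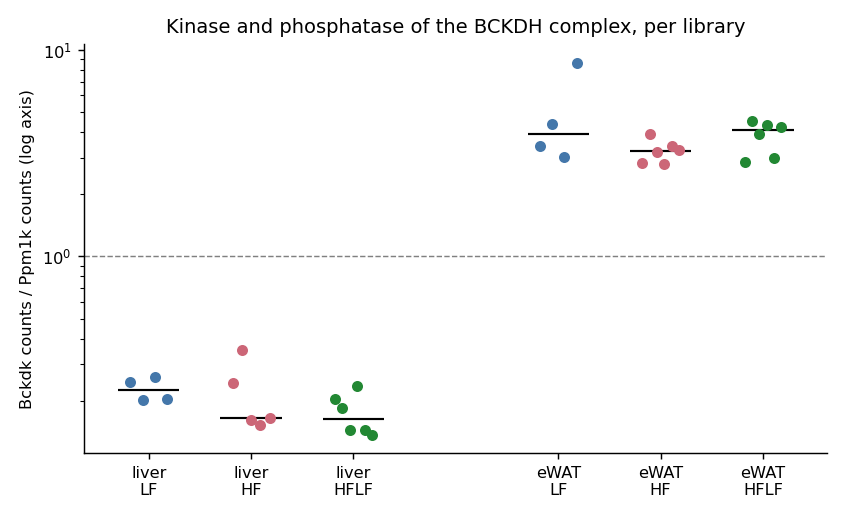
Ratio of Bckdk counts to Ppm1k counts in each library (log axis), by tissue and arm, with a line at each group's median and a dashed line at a ratio of 1. All 15 liver libraries lie at or below 0.351 and all 16 eWAT libraries at or above 2.80. The highest point is eWAT LF 6, where Ppm1k had its lowest eWAT level.

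The leucine branch was split under TMM, while with library totals Ivd, Mccc1 and Mccc2 were all lower in liver. Ivd (chromosome 2, 118861954 to 118882909), which oxidises isovaleryl-CoA, had medians of 286 CPM in liver and 245 CPM in eWAT and differed by 0.29 ± 0.08 under TMM, but by -0.45 with library totals. Mccc1 (chromosome 3, 35959312 to 36000678) and Mccc2 (chromosome 13, 99948530 to 100015639) encode the alpha and beta subunits of methylcrotonoyl-CoA carboxylase, the next step. Mccc1 was lower in liver, at a median of 64.9 CPM against 127 CPM, without overlap and with a log2 difference of -0.92 ± 0.08. With library totals the Mccc1 difference was -1.65. Its partner Mccc2 had medians of 94.7 and 83.9 CPM and differed by 0.17 ± 0.07 (edgeR adjusted p = 0.0189), or by -0.56 with library totals.

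At the far ends, Hibadh (chromosome 6, 52546228 to 52640389), the hydroxyisobutyrate dehydrogenase of valine breakdown, had medians of 330.2 CPM in liver and 202 CPM in eWAT and differed by 0.78 ± 0.07 without overlap on the TMM scale. With library totals its difference was 0.05 and did not pass (edgeR adjusted p = 0.458). Acat1 (chromosome 9, 53580522 to 53610382), the mitochondrial thiolase of isoleucine breakdown and of ketone metabolism, had a median of 561 CPM in liver (lowest 366, highest 651) and 198 CPM in eWAT (lowest 168, highest 241). Its difference of 1.46 ± 0.06 was the highest positive one of the 10. On the TMM scale 6 members had no overlap between liver and eWAT libraries, namely Bcat2, Bckdha, Bckdk, Mccc1, Hibadh and Acat1, where 46.6% of all genes had none. With library totals these were 3, Bcat2, Bckdk and Mccc1, all lower in liver, where 57.4% of all genes had none.

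**Figure D2:**
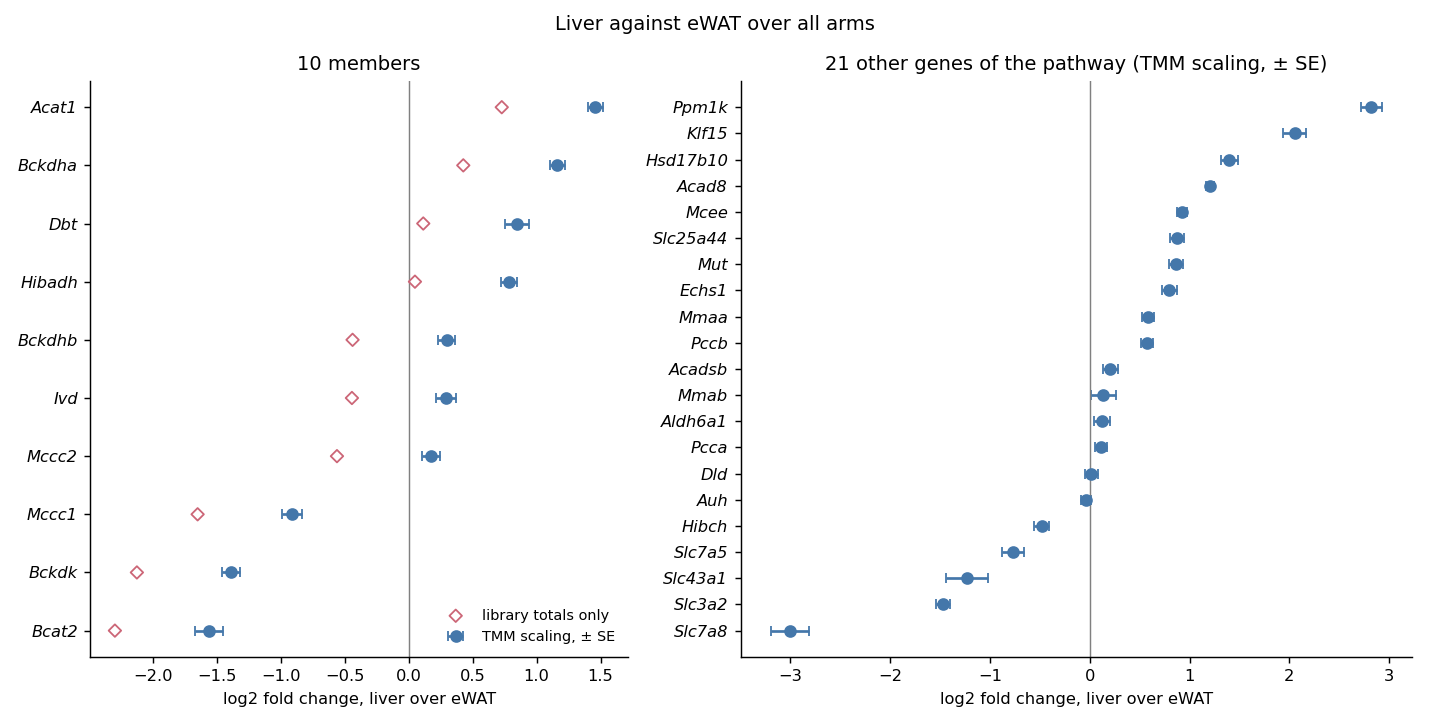
Log2 fold change of liver over eWAT across all arms, for the 10 members (left, TMM scaling ± SE as filled points and library totals only as open diamonds) and for 21 other genes of the pathway (right, TMM scaling ± SE). Acat1 and Bckdha are higher in liver and Bcat2, Bckdk and Mccc1 lower under both scalings, Dbt and Hibadh come close to 0 with library totals, and Bckdhb, Ivd and Mccc2 change sign with them.

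Of 22 other listed genes of the pathway, 21 were in both tables, and Bcat1, the cytosolic transaminase, was among the genes of the eWAT table only. Of the 21, 11 were higher and 5 lower in liver by the same test under TMM. Of all genes, 42.6% were higher and 42.9% lower by it, so these counts do not set the list apart. The 4 with the largest differences were Ppm1k, Klf15 (a transcription factor that promotes amino acid catabolism), at 2.05 ± 0.12, Slc7a8 (a plasma membrane amino acid exchanger), at -3.00 ± 0.19, and Slc3a2 (the heavy chain that partners Slc7a5 and Slc7a8), at -1.47 ± 0.07. Of the 11 higher genes, 8 differed by more than the 0.74 by which the scaling moves them and 3 by less. The median log2 difference was 0.29 over the members, 0.21 over the other genes and 0.005 over all genes, and that of the members was -0.44 with library totals.

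Within a tissue, levels can be set against one another per kilobase of exon, on the scale of that tissue. In liver, Acat1 came first at 107 ± 17.2 CPM per kb (SD, n = 15), above Bckdhb at 55.7 ± 7.46 by more than 1 SD. Bckdhb and Bckdha (54.9 ± 3.95) did not differ beyond their spread, and neither did Dbt, Mccc2 and Hibadh, at 26.6, 24.8 and 24.5 CPM per kb. Mccc1 and Bckdk came last at 4.52 ± 0.64 and 4.37 ± 0.64. In eWAT the range was narrower. Bckdhb (75.7 ± 8.51, n = 16), Acat1 (64.1 ± 6.74), Bcat2 (62.5 ± 18.4) and Ivd (53.8 ± 8.94) followed each other within 1 SD, and Mccc1 came last at 14.1 ± 2.59. When the longest transcript gave the length, Acat1 and Bckdk kept the first and last place in liver, while Bcat2 came first in eWAT at 117 ± 34.4 and Bckdk last at 20.8 ± 2.83.

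Between arms, no member passed the test in either tissue. In each of the 6 comparisons 0 of 10 members and 0 of all genes (0.0%) passed edgeR's quasi-likelihood test at an adjusted p of 0.05. DESeq2 and limma voom also called 0 members in each. The sizes below are therefore descriptions. For members, the unadjusted p is given where it fell under 0.05, with the share of all genes under it.

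In liver, 8 of 10 members lay higher in HF than in LF, where 49.4% of all genes did, with a median log2 difference of 0.10 (all genes -0.002). The same 8 lay higher in HFLF than in LF, as did 50.1% of all genes, with a median of 0.16. The 2 comparisons share the LF libraries. Bcat2 and Bckdk were the exceptions in both, at -0.23 ± 0.12 and -0.08 ± 0.14 for HF and at -0.02 ± 0.12 and -0.12 ± 0.14 for HFLF. HFLF lay above HF in 5 members and below it in 5 (50.9% of all genes were above), with a median of 0.00, and 0 members were under an unadjusted p of 0.05, where 1.86% of all genes were.

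Acat1 had the largest difference from LF in liver. Its LF libraries read 280, 417, 269 and 366 CPM, its HF libraries 441, 439, 390, 481 and 398 CPM, and its HFLF libraries ranged from 345 to 469 CPM with a median of 450 CPM. LF 2 and LF 6 fell among the other arms, so the groups overlapped. The log2 difference was 0.37 ± 0.13 for HF (edgeR unadjusted p = 0.012, adjusted p = 1.00), in a comparison where 3.6% of all genes had an unadjusted p under 0.05, and 0.36 ± 0.13 for HFLF (unadjusted p = 0.0113, adjusted p = 0.850).

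Ivd was the other liver member under that p, in HFLF only. Its 4 LF libraries read 210, 188, 204 and 192 CPM and its HFLF libraries ran from 195 to 264 CPM with a median of 242 CPM. All but HFLF 4 lay above the LF libraries, and the log2 difference was 0.26 ± 0.11 (edgeR unadjusted p = 0.0254, adjusted p = 0.862), where 5.47% of all genes were under 0.05. Bckdha, whose LF libraries lay close together at 92.7 to 101 CPM, ranged from 100 to 113 CPM in HF, a difference of 0.13 ± 0.08. Among the liver libraries, HFLF 1 had the highest level of 5 members (Bckdha, Bckdhb, Mccc1, Mccc2 and Hibadh), and HFLF 4 had the lowest Bckdhb at 68.9 CPM. How many of all genes were highest in HFLF 1 was not counted.

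**Figure D3:**
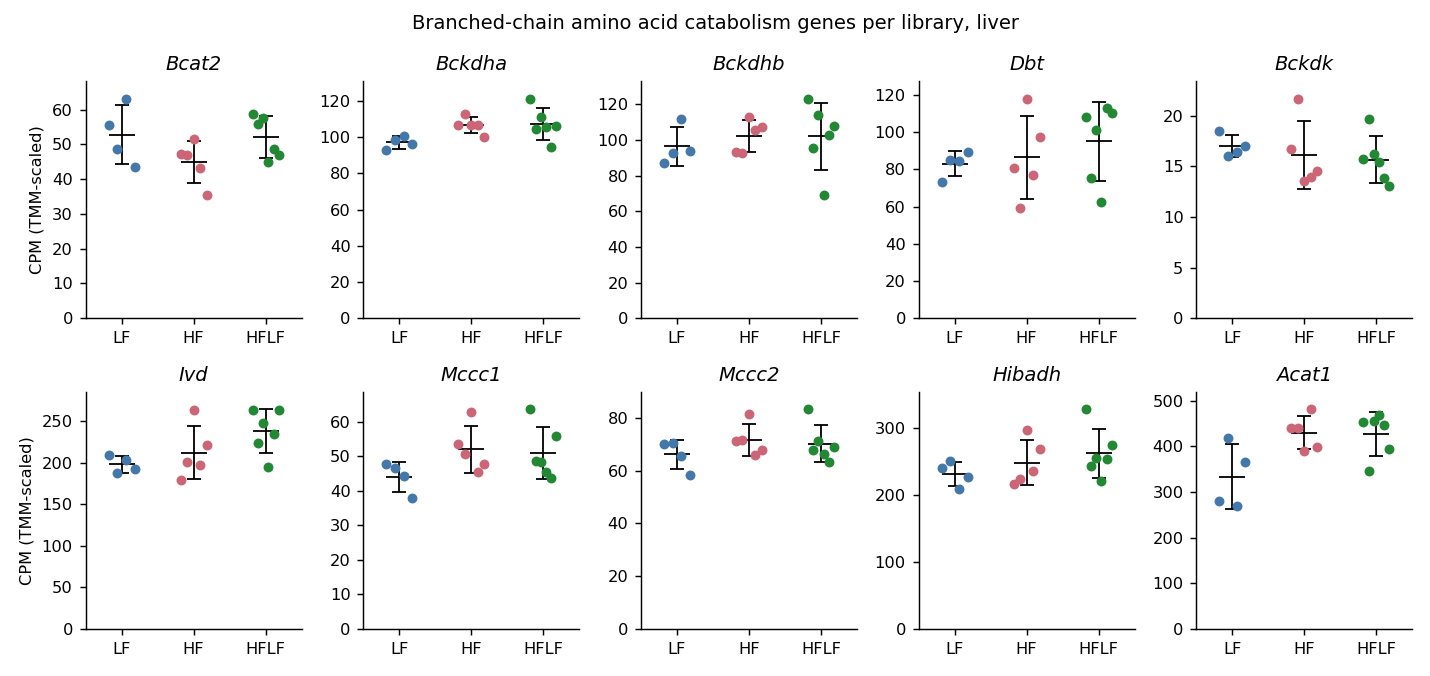
CPM of each member in each liver library (points) by arm, with the mean (bar) and SD (whiskers), on axes that start at 0. LF has the lowest mean in every panel except Bcat2 and Bckdk. Acat1 LF libraries spread from 269 to 417 CPM, and arms overlap in every panel.

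Other genes of the pathway in liver were higher in 18 of 21 cases in HF (49.4% of all genes) and in 19 of 21 in HFLF (50.1%), relative to LF, with medians of 0.07 and 0.13 and 0 calls. Slc7a5, the large neutral amino acid transporter of the plasma membrane, was the only one of them that lay lower at an unadjusted p under 0.05, on low counts. Its LF libraries read 4.18, 4.32, 5.56 and 7.67 CPM and its HF libraries 2.998, 3.45, 2.89, 3.34 and 3.95 CPM, with no overlap, as in 0.636% of all genes. The log2 difference was -0.72 ± 0.19 (edgeR unadjusted p = 0.00156, adjusted p = 1.00) in HF and -0.45 ± 0.18 in HFLF. Hsd17b10, a dehydrogenase of isoleucine breakdown, lay higher by 0.37 ± 0.14 in HF and by 0.37 ± 0.14 in HFLF. Pccb (a subunit of propionyl-CoA carboxylase, 0.18 ± 0.08 in HF), Aldh6a1 (the last dehydrogenase of valine breakdown, 0.28 ± 0.10 in HFLF) and Mut (methylmalonyl-CoA mutase, 0.24 ± 0.11 in HFLF) were the others under an unadjusted p of 0.05. Pccb had no overlap either, with LF up to 237.5 CPM and HF from 239.2 CPM. Of all genes, 0.702% had every HF library above every LF library.

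In eWAT, all 10 members lay higher in HFLF than in HF, where 50.3% of all genes did, with a median log2 difference of 0.19. HF lay lower than LF in 8 of 10 members, with a median of -0.08 (50.9% of all genes were lower), and HFLF lay higher than LF in 7, where 52.1% of all genes did, with a median of 0.10. Since the 3 comparisons share libraries, these medians are not separate evidence. None of the differences passed adjustment.

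Acat1 was again the most separated member. Its LF libraries read 203, 236, 241 and 237 CPM. Its HF libraries read from 206 to 255 CPM with a median of 217 CPM, and its HFLF libraries from 245 to 298 CPM with a median of 260 CPM. Every HFLF library lay above every LF library, as in 0.513% of all genes, and 2 HF libraries (HF 1 and HF 4) reached into the HFLF range. The log2 difference was 0.20 ± 0.08 against LF (edgeR unadjusted p = 0.0323, adjusted p = 0.410), where 10.8% of all genes had an unadjusted p under 0.05. Against HF it was 0.22 ± 0.08 (unadjusted p = 0.0107, adjusted p = 0.440), where 9.3% of all genes did.

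Mccc1 read 121, 197, 165 and 146 CPM in LF, from 115 to 174 CPM in HF with a median of 127 CPM, and from 152 to 212 CPM in HFLF with a median of 167 CPM. The HFLF level exceeded that of 4 of the HF libraries entirely, and HF 1 and HF 3 overlapped it. The difference of HFLF from HF was 0.33 ± 0.13 (edgeR unadjusted p = 0.0185, adjusted p = 0.467). Bckdk, the kinase, read 65.1, 90.3, 68.1 and 83.6 CPM in LF and from 57.3 to 71.1 CPM in HF, a difference of -0.25 ± 0.11 (unadjusted p = 0.0375, adjusted p = 0.689), where 7.04% of all genes were under 0.05. Without LF 3, LF 6, HF 2 and HF 6, which were high in testis genes, Bckdk differed by 0.009 ± 0.123. LF 2 and LF 5 are then the only LF libraries. Without LF 2, HF 3 and HF 5, which were high in B cell genes, Bckdk differed by -0.35 ± 0.13. Bcat2 had the widest spread. Its LF libraries read 185, 451, 223 and 244 CPM, and the HF difference of -0.37 ± 0.23 became -0.02 without LF 3 and 0.23 ± 0.19 without the 4 libraries high in testis genes.

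**Figure D4:**
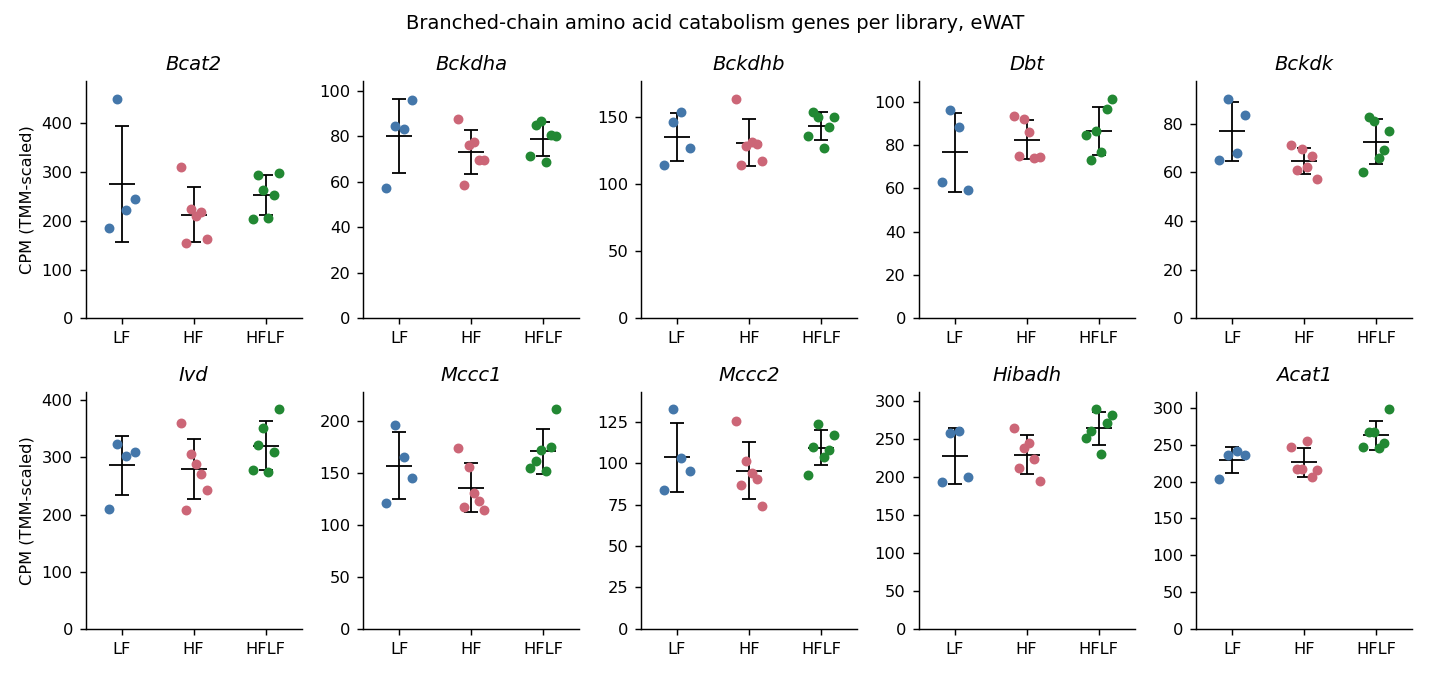
CPM of each member in each eWAT library (points) by arm, with the mean (bar) and SD (whiskers), on axes that start at 0. For Acat1 the HFLF points (245 to 298 CPM) lie above all LF points (203 to 241 CPM), while the other panels overlap, and 1 LF library stands high for Bcat2 at 451 CPM.

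Of the other listed genes in eWAT, 17 of 22 lay higher in HFLF than in LF (52.1% of all genes) and 18 of 22 higher in HFLF than in HF (50.3%), while 14 of 22 lay lower in HF than in LF (50.9%), with 0 calls. Auh, the hydratase that follows Mccc1-Mccc2 in leucine breakdown, read 66.6, 66.7, 78.7 and 75.8 CPM in LF, from 66.2 to 78.2 CPM in HF and from 82.6 to 96.8 CPM in HFLF. All HFLF libraries lay above all others. The log2 difference was 0.29 ± 0.07 against LF (edgeR adjusted p = 0.282) and 0.25 ± 0.07 against HF (adjusted p = 0.402), where 0.651% of all genes had every HFLF library above every HF library. Slc7a5 lay lower in HFLF, by 0.44 ± 0.19 in log2 relative to LF and by 0.39 ± 0.17 relative to HF, with overlap. Pcca and Mcee, of the propionyl-CoA route, lay higher in HFLF in both comparisons (0.20 and 0.16 against LF, 0.28 and 0.21 against HF), as did Mut against LF (0.39 ± 0.12) and Dld, Acad8 and Mmab against HF (0.26, 0.15 and 0.28). Hsd17b10 lay lower in HF than in LF at -0.33 ± 0.14. Its LF 3 library read 138 CPM and the other LF libraries 74.9 to 99.3 CPM, with HF at 68.4 to 97.9 CPM. All differences given here, from Auh to Hsd17b10, had an unadjusted edgeR p under 0.05. Of all genes, 10.8% did for HFLF against LF, 9.3% for HFLF against HF and 7.04% for HF against LF.

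Whether an arm's difference itself differed between liver and eWAT was tested as an interaction. For HF against LF, HFLF against LF and HFLF against HF, 0 of 10 members and 0 of 12735 genes passed by edgeR. The share of all genes with an unadjusted p under 0.05 was 4.88%, 5.84% and 4.94%. Acat1 (0.38 ± 0.16, unadjusted p = 0.0221) and Mccc1 (0.44 ± 0.19, unadjusted p = 0.0324) were under it for HF against LF, with the HF level higher in liver relative to eWAT (edgeR adjusted p = 0.956 for both). In eWAT alone, Mccc1 differed between HF and LF by 0.02 ± 0.17 without the 4 libraries high in testis genes. Without the 3 high in B cell genes it differed by -0.33 ± 0.16. The interaction was not tested without these libraries. No member was under an unadjusted p of 0.05 in the other interaction contrasts. Among the 21 other genes, 3 were under an unadjusted p of 0.05 for HF against LF, namely Pccb and Hsd17b10 as higher and Slc7a5 as lower. The difference of Hsd17b10 was 0.69 ± 0.21 (edgeR adjusted p = 0.956). Its HF level was higher than LF in liver and lower in eWAT, where LF 3 stood high at 138 CPM.

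The members varied together across eWAT libraries. Over the 45 pairs of members the Pearson correlation of log2 CPM across 16 libraries ran from 0.12 to 0.90 with a median of 0.72, and all 45 were above 0. Across 15 liver libraries it ran from -0.69 to 0.93 with a median of 0.29, and 36 were above 0. Of the 9 liver pairs below 0, 7 held Bckdk, the lowest being Bckdk with the transacylase gene Dbt at -0.69, whereas Bckdk and Dbt stood at 0.12 in eWAT. These correlations are descriptions, since libraries share arms and their own scaling. Pairs of other genes were not measured for comparison, so the correlations cannot set the members apart.

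Within an arm, eWAT libraries stood high or low for many members at once. LF 2, HF 2, HF 5 and HF 6 had 0 of 10 members above the tissue's median, while HF 1, HFLF 3, HFLF 5 and HFLF 6 had all 10 above it. The matching count over all genes was not made. The mean log2 CPM of the members was 6.85 in LF 2, 6.87 in HF 2, 6.88 in HF 6 and 7.02 in HF 5, and 7.09 to 7.44 in the other libraries. LF 2 had the highest sum of 3 B cell markers (Cd79a, Cd79b and Ms4a1), at 233 CPM, and HF 5 the next at 91.6 CPM, followed by HF 3 at 42.1 CPM, where the other eWAT libraries had 4.34 to 14.7 CPM. HF 6 and HF 2 had the highest sums of 5 genes of testis germ cells (the protamines Prm1 and Prm2, Tnp1, Tnp2 and also Ldhc), at 116 and 74.0 CPM, followed by LF 3 at 23.2 CPM and LF 6 at 18.0 CPM, and HFLF libraries had 0.199 to 1.21 CPM. LF 3, however, had 9 members above the median. By arm, the B cell sum ran from 4.79 to 233 CPM in LF, 4.81 to 91.6 CPM in HF and 4.34 to 7.91 CPM in HFLF. Summed adipocyte markers ran from 26400 to 36220 CPM in LF, 28190 to 32440 CPM in HF and 30480 to 39690 CPM in HFLF. The sum of 6 hepatocyte markers in eWAT had medians of 140 CPM in LF (53.9 to 276), 76.3 CPM in HF (15.1 to 346) and 21.9 CPM in HFLF (16.4 to 87.0). The sum of 5 macrophage markers ran from 540 to 883 CPM in LF, 486 to 823 CPM in HF and 393 to 611 CPM in HFLF. Genes specific to the epididymis (5 listed) were not among the genes of the table.

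Leaving these libraries out moved the arm medians. Without LF 3, LF 6, HF 2 and HF 6, the 4 with high testis genes, only LF 2 and LF 5 remained in LF. LF 2 had the lowest member mean of the eWAT libraries, at 6.85. The members' median for HF against LF then went from -0.08 to 0.11 with 10 of 10 higher. That for HFLF against LF went from 0.10 to 0.21 with 10 of 10 higher, and that for HFLF against HF from 0.19 to 0.07 with 9 of 10 higher. The share of all genes higher in these fits was not counted. Without LF 2, HF 3 and HF 5, the 3 with high B cell genes, the members' median was -0.19 for HF against LF. It was 0.01 for HFLF against LF and 0.19 for HFLF against HF. Acat1 in HFLF against HF was 0.18 ± 0.09 without the first set and 0.16 ± 0.09 without the second, and in HFLF against LF 0.23 ± 0.11 and 0.14 ± 0.09, none of them under an unadjusted p of 0.05. Mccc1 in HFLF against HF was 0.22 ± 0.13 without the first set, no longer under that p, and 0.34 ± 0.14 without the second (edgeR unadjusted p = 0.0247, adjusted p = 0.846). The part of these cell types, hepatocyte and macrophage genes included, in the members' levels was not tested.

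**Figure D5:**
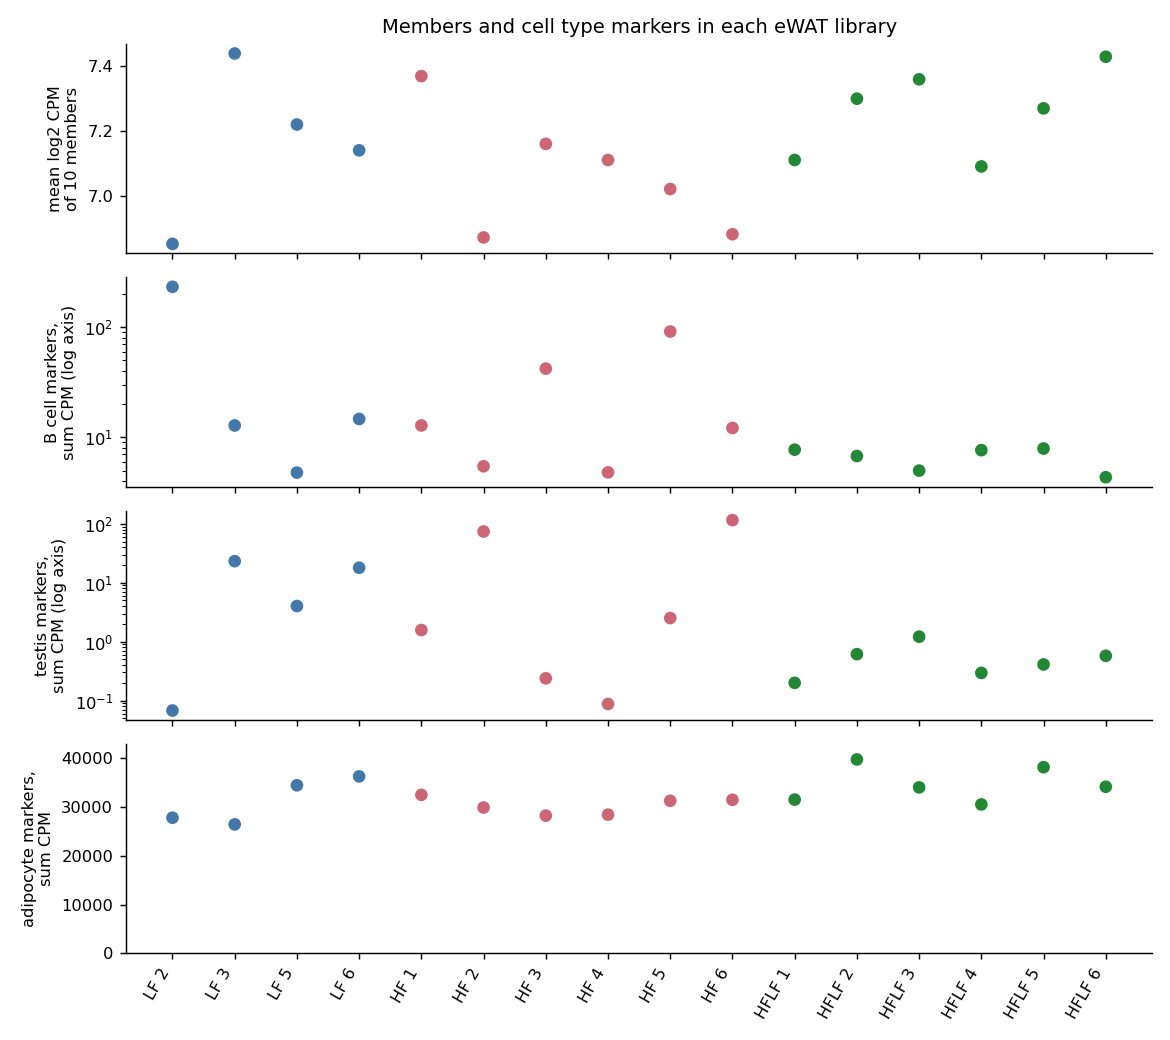
Each eWAT library by arm and number, with the mean log2 CPM of the 10 members (top) and the summed CPM of B cell and testis markers (log axes) and adipocyte markers (linear axis from 0). LF 2, HF 2 and HF 6 have the lowest member means (6.85 to 6.88), where LF 2 is highest in B cell markers and HF 6 and HF 2 are highest in testis markers.

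The 5 genes outside the set whose log2 CPM ran most alike to the members' mean were named for each tissue. In eWAT, among 9822 genes at a mean of 10 CPM or more, these were Sdha (a subunit of succinate dehydrogenase, Pearson r = 0.974 over 16 libraries), Echs1 (enoyl-CoA hydratase of isoleucine and valine breakdown, 0.954), Hadh (of fatty acid oxidation, 0.95), Trap1 (a mitochondrial chaperone, 0.942) and Idh3b (of the citrate cycle, 0.928). Without the 2 libraries farthest from the median, HFLF 6 and LF 2, Sdha stood at 0.964. In liver, among 7935 genes and 15 libraries, the leaders were Shmt2 (mitochondrial serine hydroxymethyltransferase, 0.891), Prdx6, Elac1, Gstz1 (of tyrosine breakdown) and Aldh7a1 (of lysine breakdown, 0.865). Aldh7a1 fell to 0.603 without HF 3 and HFLF 1. None of these liver genes is on the list of other pathway genes, and 1 of the eWAT genes, Echs1, is.

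The promoters of the members were searched for sequence motifs. RefSeq windows of the 250 bases before each gene's start (GRCm38.p6) were at hand for 8 of the 10 members, in 10 windows. They were searched on both strands for 7 motifs. The nuclear receptor motifs were the PPAR response element, which is AGGTCA repeated after any 1 base, and the ERR element TCAAGGTCA, whose end overlaps the former. They were in 0.0335% and 0.387% of all 32851 windows and in none of the 10. The promoter elements were the GC box, GGGCGG, found in 32.7% of all windows and before Mccc1, Hibadh and Bckdhb. The CACCC box is CCACCC, found in 28.1% and before Ivd, Mccc1 and Bckdhb. The E-box, CACGTG, was found in 6.02% and before Mccc2, and the NRF1 site in 3.74% and before Hibadh. The last motif was the CCAAT box. CCAAT occurred 4 times before Ivd, 3 times before Mccc1, 3 times before Mccc2, 2 times before the first start of Bckdhb and 1 time each before Hibadh and Bckdk, and was not found before Bckdha or in either window of Bcat2. Of all windows, 33.8% held at least 1 match and 2.79% held 3 or more. Of the Bckdha window, only 30 bases lie outside annotated exons. In eWAT, Ivd correlated with Mccc1 at 0.86 and with Mccc2 at 0.83, and Mccc1 with Mccc2 at 0.90. Bcat2 correlated with Mccc2 at 0.89 and Bckdha with Ivd at 0.87. Whether CCAAT matches bear on how these genes vary together was not tested. CCAAT was singled out after the matches were seen, and a match is a run of letters, not a bound site. The windows of the leucine branch are shown for their repeated matches and that of Bckdk, with 1 match, for comparison. They run 5′ to 3′ on the gene's strand, with CCAAT or its reverse complement in capitals and with bases of annotated exons left off, so that 1 match of Ivd and 1 of Mccc1 are not shown. The overlapping pair in Mccc2 counts as 2 matches.
Ivd, chr2:118861744-118861953, plus strand: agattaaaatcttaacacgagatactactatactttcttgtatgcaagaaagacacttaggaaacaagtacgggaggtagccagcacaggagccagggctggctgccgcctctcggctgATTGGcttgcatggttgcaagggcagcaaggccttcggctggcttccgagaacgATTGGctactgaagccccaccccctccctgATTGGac
Mccc1, chr3:36000712-36000928, minus strand: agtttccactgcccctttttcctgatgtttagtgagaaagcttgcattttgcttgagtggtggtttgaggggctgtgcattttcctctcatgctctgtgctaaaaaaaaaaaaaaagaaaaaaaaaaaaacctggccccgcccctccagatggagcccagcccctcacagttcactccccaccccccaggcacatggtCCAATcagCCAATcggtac
Mccc2, chr13:100015640-100015889, minus strand: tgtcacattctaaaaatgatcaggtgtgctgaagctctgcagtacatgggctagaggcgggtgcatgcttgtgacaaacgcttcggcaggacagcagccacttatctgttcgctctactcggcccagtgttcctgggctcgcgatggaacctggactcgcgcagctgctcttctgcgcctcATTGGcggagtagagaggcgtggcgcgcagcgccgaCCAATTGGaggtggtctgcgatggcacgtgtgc
Bckdk, chr7:127903823-127904072, plus strand: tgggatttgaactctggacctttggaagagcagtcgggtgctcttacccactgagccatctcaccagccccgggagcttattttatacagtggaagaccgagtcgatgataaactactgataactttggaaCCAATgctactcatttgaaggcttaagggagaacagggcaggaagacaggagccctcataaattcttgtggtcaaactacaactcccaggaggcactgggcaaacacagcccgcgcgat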

How the data were processed

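The submitters' processing notes name STAR as the aligner and GRCm38.p6 as the genome build for the liver and eWAT RNA-seq. Nothing used here states the STAR version, counting tool, annotation, strand setting or read selection. The authors deposited whole-number counts per gene after a filter on low CPM, per the file names. Every gene kept had a 4th highest CPM, by library totals alone, of at least 0.731 in liver and 0.707 in eWAT. Deposited RPKM tables were not used, because their implied gene lengths differed between libraries for the same gene. Identifiers, with versions removed, were matched to GENCODE M21 (13662 liver and 15969 eWAT genes with a symbol).

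Counts were fitted with edgeR 4.0.16 in R 4.3.3 (quasi-likelihood, robust, TMM), per tissue with 1 term per arm (12 and 13 residual degrees of freedom, biological coefficient of variation 0.194 and 0.219). A joint fit of 31 libraries over 12735 genes gave the tissue difference and interactions. P-values were adjusted over all genes by Benjamini-Hochberg. CPM within a tissue uses TMM factors of that tissue, and levels compared between tissues use those of the joint fit. A prior count of 2 entered log2 CPM. Levels carry their SD, and log2 fold changes their SE. The script was tested on simulated data. Alternatives were DESeq2 1.42.0, limma 3.58.1, other scalings, filters, blocks and left-out libraries.

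Members, gene lists, markers and the doubted libraries were chosen with earlier results of these data known. The named genes were all members, other pathway genes with an unadjusted p under 0.05 between arms or among the 4 largest tissue differences, and per tissue the 5 genes most alike to the members' mean z score. Some listed genes are not reported here and entered no list count or sum. No label says that the animals came from separate litters, so p-values measure the spread between these animals. No 2 libraries were alike to within sampling noise. Whether equal numbers mark the same animal in both tissues is not stated. Correlations of equal numbers between tissues, at most 0.138, do not settle it.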

Additional observations from a re-analysis of the deposited data

Results flagged for a closer look

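Of 60 groups of 4 to 6 libraries tested for a library far from the others, 2 were found, where chance gives about 1 in 20. Bckdhb in eWAT HF replicate 1 read 163.8 CPM, above the other HF libraries at 114 to 132 CPM, and this library had all 10 members above the tissue's median. Acat1 in eWAT LF replicate 2 read 203.0 CPM, below the other LF libraries at 236 to 241 CPM, and this library had the highest sum of B cell markers.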

How the results depend on the processing

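No setting gave a member a call between arms. Over all genes, where edgeR called 0, DESeq2 called 1 in liver HF against LF, 7 in liver HFLF against LF, 1 in eWAT HF against LF, 62 in eWAT HFLF against LF, 47 in eWAT HFLF against HF, and 23 and 6 in the interactions of HFLF against LF and HFLF against HF. The replicate block called 1 gene in liver HFLF against LF and left the members' medians at 0.12, 0.21 and 0.05 in liver and -0.09, 0.11 and 0.21 in eWAT. Libraries of equal replicate number correlated at -0.338 to 0.384 across arms and at -0.0711 to 0.138 between tissues, which cannot settle whether they are paired. For liver against eWAT, the fit was repeated with only the numbers found in both tissues. With a block 10 members and 10613 of all genes passed, and without it 9 members and 10690 genes. Mccc2 missed without the block (edgeR adjusted p = 0.0533). Leaving out 1 library gave 0 to 13 genes in eWAT HFLF against LF, where LF 5 decides, and 0 to 1 in those interactions, where liver HFLF 4 does. The members' median then ran from 0.03 to 0.13 (liver HF against LF), 0.11 to 0.20 (liver HFLF against LF), -0.03 to 0.06 (liver HFLF against HF), -0.17 to -0.001 (eWAT HF against LF), 0.01 to 0.22 (eWAT HFLF against LF), 0.15 to 0.25 (eWAT HFLF against HF) and 0.26 to 0.32 (liver against eWAT). Without the 4 libraries high in testis genes, where only LF 2 and LF 5 remain in LF, the eWAT HF against LF median was 0.113. With library totals only, the liver against eWAT median was -0.443 and Bckdhb, Ivd and Mccc2 reversed to -0.440, -0.445 and -0.562. In LF libraries only, Bckdhb, Ivd and Mccc2 no longer passed (0.25, 0.21 and 0.09), and 7 members did, as did 65.4% of all genes. Every member exceeded the floor of 3 counts in each library, and whether depth limits the differences between arms was not tested.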
